A study of Mus musculus with 12 samples.

Results

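Transcript levels of 39 genes of the unfolded protein response (UPR) and of the chaperone families were examined in myeloid-derived suppressor cells (MDSC), immature myeloid cells that build up in hosts with tumours and restrain T cells. The genes were taken by name, as sensors of stress in the endoplasmic reticulum (ER), their targets, ER chaperones and heat shock genes. All 39 were found among the 23479 genes of the normalized count table, and all 39 passed the minimum level for testing. The monocytic subset (M-MDSC) resembles monocytes and the polymorphonuclear subset (PMN-MDSC) resembles neutrophils, each obtained by flow sorting of spleens from C57BL/6 mice bearing B16 melanoma, a mouse tumour line. LD mice were lymphodepleted with cyclophosphamide, an alkylating agent, and fludarabine, a purine analogue, once tumours had grown, and their spleens were taken 7 days later. Ctrl mice carried the same tumours and received no chemotherapy, so every group comes from tumour-bearing animals. The 12 total RNA libraries form 4 groups of 3: M-MDSC LD, M-MDSC Ctrl, PMN-MDSC LD and PMN-MDSC Ctrl. The design text gives 3 mice per treatment but ties no library to a mouse, so p-values measure the spread among these libraries, which may in part be technical.

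The UPR is the response of a cell to unfolded protein in the ER, the compartment in which secreted and membrane proteins fold. Its sensors are IRE1 (gene Ern1), PERK (gene Eif2ak3) and ATF6: IRE1 splices Xbp1 mRNA, PERK slows translation and so favours production of ATF4, and ATF6 is cut to release a transcription factor. Their targets include ER chaperones, the machinery that returns misfolded protein to the cytosol for degradation, and, downstream of ATF4, genes of amino acid supply and of cell death. The heat shock response is a separate pathway in which HSF1 raises chaperones of the cytosol, nucleus and mitochondria. Neutrophil precursors fill granules with secretory proteins during maturation in the marrow, whereas monocytes go on to make secreted and surface proteins in tissue.

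The libraries held 8906045 to 16242926 reads assigned to genes. Levels are normalized counts, the reads of a gene divided by one size factor per library, given for replicates 1, 2 and 3 in that order or as mean ± SD (n = 3). Changes are differences of log2(normalized count + 1) with their standard error (SE), from limma fitted over 11122 genes with a mean of at least 10, and "rose", "fell" or "passed" means a Benjamini-Hochberg adjusted p under 0.05. Of 7 defining monocyte markers, 6 were higher in M-MDSC in LD and 7 in Ctrl, and all 6 defining neutrophil markers tested were lower in both. Ccr2, a monocyte chemokine receptor, had 10069, 12135 and 10762 in M-MDSC LD and 12407, 12233 and 13959 in M-MDSC Ctrl, but 166 to 493 in PMN-MDSC libraries. Cxcr2, a neutrophil chemokine receptor, had 29383, 28319 and 32521 in PMN-MDSC LD and 32479, 29616 and 26529 in PMN-MDSC Ctrl, against 8.4 to 89.1 in M-MDSC. Ly6c2, which encodes the Ly6C antigen of monocytes, was not called between the populations in LD, with 2196 ± 218 in M-MDSC LD and 1975 ± 215 in PMN-MDSC LD (0.15 ± 0.16, limma adjusted p 0.395). It averaged 1559 ± 235 in M-MDSC Ctrl and 523 ± 127 in PMN-MDSC Ctrl, and rose in PMN-MDSC LD by 1.94 ± 0.16, limma adjusted p 2.4e-05. The summed level of 10 cell division genes was 3889.8 to 13180.0 in M-MDSC LD and 1223 to 1489 in M-MDSC Ctrl, and 2022 to 10369 in PMN-MDSC LD and 2694 to 3488 in PMN-MDSC Ctrl. LD replicate 1 was the highest library in both populations, so counts are also given without it. The longest coding transcripts of 13 of the 39 genes overlap exons of another gene, and reads of such pairs may not be separable. In sorted bulk samples, a lower level in every cell and fewer cells that carry the transcript cannot be told apart.

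Of the 10 calls made after lymphodepletion over both populations, 6 were rises of cytosolic chaperones, and 1 was of an ER chaperone. In M-MDSC 3 of the 39 genes rose and 0 fell: Hsp90aa1, Hspa8 and Dnaja1, all of the cytosol. The background in this comparison was 3.01% of 11122 genes called, 2.54% higher and 0.468% lower. In PMN-MDSC 4 rose (Hspa8, Hsp90ab1, Hsph1 and P4hb) and 3 fell (Ppp1r15a, Atf6 and Eif2ak3), where 15.7% of all genes were called, 7.17% higher and 8.51% lower. With 7 of 39 called in PMN-MDSC, the share was close to that background. With libraries scaled to total reads, 2 of the 39 were higher and 7 lower in PMN-MDSC LD. At an unadjusted p under 0.05, 14 of the 39 were counted in M-MDSC and 14 in PMN-MDSC. Groups did not overlap for 8 genes higher and 7 lower in M-MDSC LD (10.6% and 12.4% of all genes), and for 6 higher and 9 lower in PMN-MDSC LD (14.1% and 17.8%). In M-MDSC edgeR called 6 higher and 0 lower, and DESeq2 8 higher and 1 lower. The median change over the 39 genes was -0.03 in M-MDSC and -0.07 in PMN-MDSC, beside -0.04 and -0.05 over all tested genes.

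The 11 heat shock and chaperone genes of the cytosol and mitochondria had a median log2 change of 0.57 in M-MDSC (range -0.10 to 1.59) and of -0.05 in PMN-MDSC (range -0.95 to 0.98). Hsp90aa1 encodes the inducible cytosolic HSP90, which holds kinases and receptors in a competent fold, and lies at chr12:110691036-110696395 (GRCm38). Hsp90aa1 had 2253, 2205 and 2149 normalized counts in M-MDSC LD and 1382, 1150.2 and 1366 in M-MDSC Ctrl. The 3 LD libraries lay within a narrow band above every Ctrl library, a log2 change of 0.77 ± 0.11, limma adjusted p 0.00128. In PMN-MDSC its level was 1344, 1079.6 and 1043 in LD and 1104, 1229.6 and 1248 in Ctrl, with overlapping groups and a log2 difference of -0.05 ± 0.11, limma adjusted p 0.781. The difference between the 2 changes was itself past the threshold, at 0.82 ± 0.15, limma adjusted p 0.0136, where 2.25% of all genes were called (1.18% higher and 1.07% lower). That made Hsp90aa1 the 1 gene of the 39 whose LD change was called different between populations. At an unadjusted p under 0.05 this comparison counted 14 of them, edgeR called 4 (Hsp90aa1, Dnaja1, Ppp1r15a and Chac1) and DESeq2 called 8.

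Hspa8, the constitutive HSC70 and the most abundant of the 39 transcripts per length, rose in both populations. Hspa8 had 13997, 14071 and 14624 normalized counts in M-MDSC LD and 10429, 11517 and 9569 in M-MDSC Ctrl, a change of 0.44 ± 0.10, limma adjusted p 0.0252. In PMN-MDSC it had 4969, 5275 and 5841 in LD and 3980.5, 3616 and 3283 in Ctrl, a change of 0.57 ± 0.10, limma adjusted p 0.00243. No LD library overlapped a Ctrl library in either population, and the difference between the 2 changes was -0.12 ± 0.14, limma adjusted p 0.692. In M-MDSC the call was lost without M-MDSC Ctrl replicate 1 (adjusted p 0.0924), M-MDSC Ctrl replicate 3 (adjusted p 0.128), M-MDSC LD replicate 1 (adjusted p 0.0521) or M-MDSC LD replicate 3 (adjusted p 0.0914), and with upper-quartile scaling (adjusted p 0.0509).

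Hsp90ab1, the constitutive cytosolic HSP90, passed in PMN-MDSC. It had 3546, 3648 and 4022 in PMN-MDSC LD and 2582, 2347 and 1955 in PMN-MDSC Ctrl, a change of 0.71 ± 0.12, limma adjusted p 0.00144. In M-MDSC it had 9614, 11466 and 12378 in LD and 8960.4, 8254 and 8048 in Ctrl. Groups did not overlap there either, but the change of 0.40 ± 0.12, limma adjusted p 0.0806, did not pass; it passed without M-MDSC LD replicate 1 (adjusted p 0.0367), without LD replicate 1 of both populations (adjusted p 0.0173), with total-read scaling (adjusted p 0.0287) and with DESeq2 (adjusted p 0.0239). The difference between populations, -0.31 ± 0.16, limma adjusted p 0.335, gave no call, so the 2 changes are not shown to differ.

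Hsph1 encodes HSP110, an exchange factor for HSP70 that also helps to dissolve aggregates. In PMN-MDSC it was a low transcript, with 81.2, 57.4 and 30.9 in LD and 30.6, 28.1 and 20.8 in Ctrl, and it rose by 0.98 ± 0.30, limma adjusted p 0.0398. In M-MDSC it had 763, 866 and 784 in LD and 329, 522 and 432 in Ctrl, and all LD libraries were above all Ctrl libraries. The M-MDSC change of 0.93 ± 0.30, limma adjusted p 0.123, did not pass. It passed without PMN-MDSC LD replicate 1 (adjusted p 0.0475) or PMN-MDSC LD replicate 3 (adjusted p 0.0389). It also passed fitted on the M-MDSC libraries alone (limma adjusted p 0.0226), with edgeR (adjusted p 0.0317) and with DESeq2 (adjusted p 0.00405). The PMN-MDSC call was lost without M-MDSC Ctrl replicate 3 (adjusted p 0.06), M-MDSC LD replicate 2 (adjusted p 0.0536), M-MDSC LD replicate 3 (adjusted p 0.0569), PMN-MDSC Ctrl replicate 1 (adjusted p 0.0509), PMN-MDSC Ctrl replicate 2 (adjusted p 0.0761), PMN-MDSC Ctrl replicate 3 (adjusted p 0.146), PMN-MDSC LD replicate 1 (adjusted p 0.11) or PMN-MDSC LD replicate 2 (adjusted p 0.0917). Fitted on the PMN-MDSC libraries alone, it was also lost (limma adjusted p 0.187). So it was with no minimum level (limma adjusted p 0.0619) and with total-read scaling (limma adjusted p 0.0667). The difference between the 2 changes was -0.04 ± 0.42, limma adjusted p 0.97.

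The HSP40 cochaperones Dnaja1 and Dnajb1, which deliver substrates to HSP70, had higher levels in M-MDSC LD than in M-MDSC Ctrl. Dnaja1 had 651, 718 and 762 normalized counts in M-MDSC LD and 475, 542 and 424 in M-MDSC Ctrl, and it rose by 0.57 ± 0.13, limma adjusted p 0.024. The call was lost without M-MDSC Ctrl replicate 1 (adjusted p 0.0841), M-MDSC Ctrl replicate 3 (adjusted p 0.117), M-MDSC LD replicate 2 (adjusted p 0.0535) or M-MDSC LD replicate 3 (adjusted p 0.0979). Dnajb1 had 248, 302 and 364 in M-MDSC LD and 196, 232 and 180.1 in M-MDSC Ctrl. Its change of 0.57 ± 0.15, limma adjusted p 0.0631, did not pass. It passed without M-MDSC LD replicate 1 (adjusted p 0.0282) or PMN-MDSC LD replicate 1 (adjusted p 0.0469). It also passed without LD replicate 1 of both populations (limma adjusted p 0.0153) and with total-read scaling (limma adjusted p 0.033). Both edgeR (adjusted p 0.0386) and DESeq2 (adjusted p 0.014) called it. In PMN-MDSC neither passed, with log2 changes of -0.11 ± 0.13 for Dnaja1 and -0.05 ± 0.15 for Dnajb1. The differences between the populations did not pass, at 0.68 ± 0.18, limma adjusted p 0.0626, for Dnaja1 and 0.63 ± 0.22, limma adjusted p 0.149, for Dnajb1. The Dnaja1 difference passed without PMN-MDSC LD replicate 3 (limma adjusted p 0.0373) or LD replicate 1 of both populations (limma adjusted p 0.0446). It also passed with total-read scaling (limma adjusted p 0.0155), edgeR (adjusted p 0.0388) and DESeq2 (adjusted p 0.0228).

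Hspa1a and Hspa1b encode the stress-inducible HSP70, and 58.8% of the 50-base stretches of the longest Hspa1a coding transcript recur in that of Hspa1b, so reads may be split between them or lost. Hspa1a had 158, 84.9 and 221 in M-MDSC LD and 18.8, 61.2 and 89.2 in M-MDSC Ctrl, with overlapping groups (1.59 ± 0.60, limma adjusted p 0.221). Hspa1b had 248, 147 and 248 in M-MDSC LD and 48.6, 63.2 and 138 in M-MDSC Ctrl, groups that did not overlap (1.46 ± 0.40, limma adjusted p 0.0635). Hspa1b passed without M-MDSC Ctrl replicate 3 (adjusted p 0.0216), M-MDSC LD replicate 2 (adjusted p 0.0465) or PMN-MDSC LD replicate 1 (adjusted p 0.0356). It also passed with a pseudocount of 8 (limma adjusted p 0.0401) and with DESeq2 (adjusted p 0.0139). In PMN-MDSC both genes were near the lowest of the set, between 7.4 and 55.5, and changed by -0.95 ± 0.60, limma adjusted p 0.306, for Hspa1a and -0.10 ± 0.40, limma adjusted p 0.889, for Hspa1b, neither past the threshold. The mitochondrial pair Hspd1 (HSP60) and Hspe1 (HSP10) and the transcription factor Hsf1 gave no call in either population. Their changes were 0.05 ± 0.25, -0.10 ± 0.48 and -0.03 ± 0.21 in M-MDSC, and 0.05 ± 0.25, 0.10 ± 0.48 and -0.15 ± 0.21 in PMN-MDSC, in that gene order. Summed over the 11 genes, levels were 29031 to 32613 in M-MDSC LD and 21325 to 23517 in M-MDSC Ctrl, and 11759 to 12987 in PMN-MDSC LD and 8473 to 9701 in PMN-MDSC Ctrl.

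**Figure D1:**
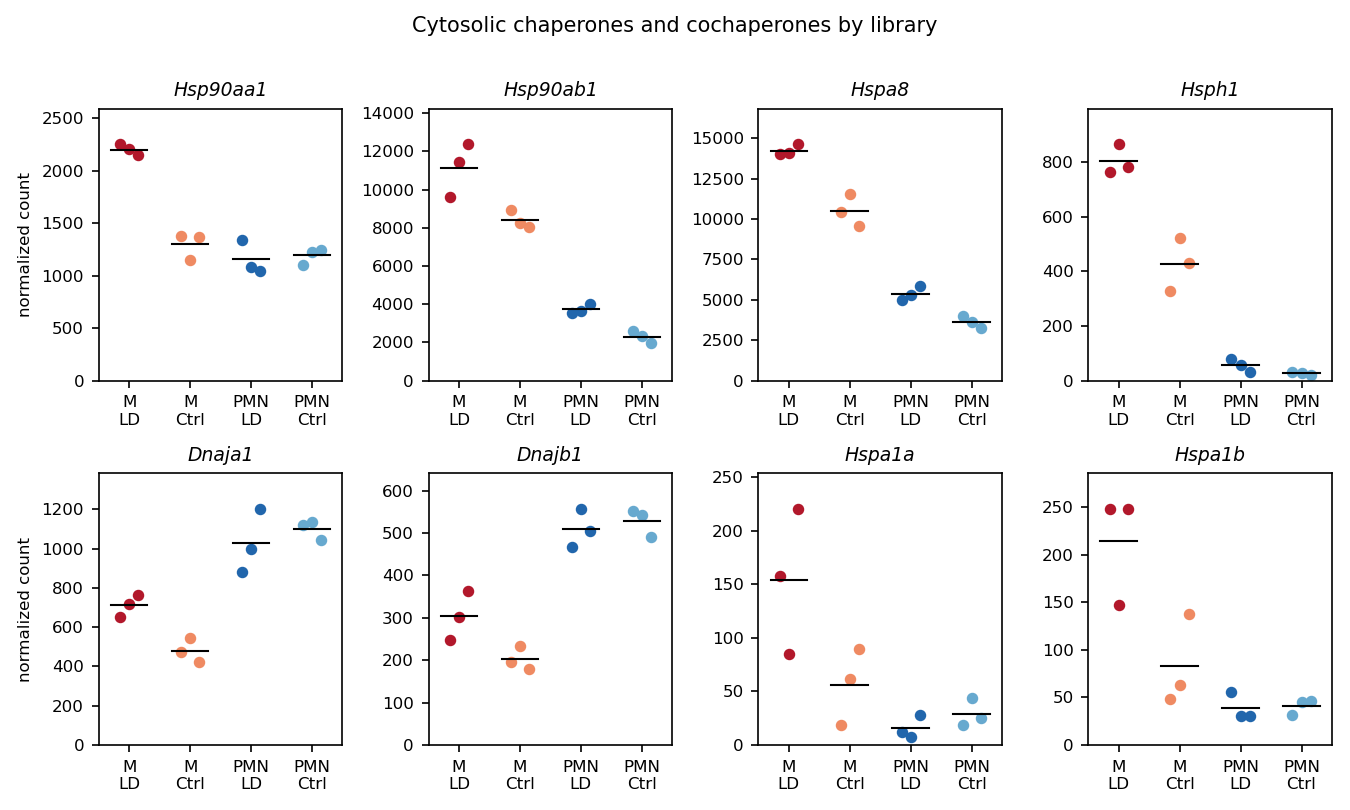
Normalized counts (linear axis from 0) of 8 cytosolic chaperone and cochaperone genes in each of the 12 libraries, by group, M-MDSC LD, M-MDSC Ctrl, PMN-MDSC LD and PMN-MDSC Ctrl from left to right, with the group mean as a bar. For Hsp90aa1 the 3 M-MDSC LD libraries sit between 2149 and 2253, above the other 9 libraries, while Hspa8 and Hsp90ab1 have higher LD than Ctrl points in both populations.

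Markers of other cells and states moved in the same comparisons. Of 7 genes for granule proteins made by neutrophil precursors, 6 rose in M-MDSC and their sum was 10539 to 50447 in M-MDSC LD and 1768 to 2236 in M-MDSC Ctrl. Of 10 cell division genes, 8 rose in M-MDSC. Of 6 defining neutrophil markers, 3 rose, with sums of 9267 to 38515 in M-MDSC LD and 5554 to 6246 in M-MDSC Ctrl, and none was at 0 in a whole group. Of 5 dendritic cell and macrophage markers tested, 3 rose, with 7-gene sums of 1570.3 to 1756 in M-MDSC LD and 961 to 1194 in M-MDSC Ctrl. Itgax made up most of these sums, at 1146.8 ± 103.6 in M-MDSC LD and 629.8 ± 143.7 in M-MDSC Ctrl. It was higher in PMN-MDSC, at 3333.9 ± 642.8 in LD and 5101.9 ± 304.3 in Ctrl. Flt3, of the same list, did not rise, at 275.5 ± 97.7 in M-MDSC LD and 310.1 ± 54.3 in M-MDSC Ctrl. The 7 defining monocyte markers summed to 65823 to 82161 in M-MDSC LD and 99038 to 117825 in M-MDSC Ctrl; with limma 0 of the 7 passed, 2 had an unadjusted p under 0.05, edgeR called 0 and DESeq2 1 lower. In PMN-MDSC 5 of 7 granule genes rose, with sums of 185721 to 260031 in LD and 83971 to 97966 in Ctrl. Neutrophil markers summed to 506581 to 581846 in PMN-MDSC LD and 359472 to 390860.5 in PMN-MDSC Ctrl, where 1 of 6 rose and 1 fell, and of 7 monocyte markers 1 rose and 2 fell. Of 7 plasma cell markers tested, 1 fell after lymphodepletion among M-MDSC libraries and 2 among PMN-MDSC libraries. The lowest log2 change on that list was -6.33 for M-MDSC and -3.47 for PMN-MDSC. The 1 B cell marker tested fell in PMN-MDSC (-2.51) and was not called for M-MDSC (-0.06). Without each of the 12 libraries in turn, the Hsp90aa1 change in M-MDSC was 0.68 to 0.81 and passed each time. The part of these markers in the chaperone changes, Hsp90aa1 included, and in the PMN-MDSC calls was not tested.

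Among the 9 genes of the sensors and the PERK branch, 3 fell and 0 rose in PMN-MDSC LD, where 8.51% of all genes fell and 7.17% rose. All 6 sensor and transcription factor genes had negative log2 changes there, of which Atf6 and Eif2ak3 fell, with a median of -0.36 against -0.05 over all genes. In M-MDSC 0 of the 6 passed with limma, 2 had an unadjusted p under 0.05, edgeR called 0 and DESeq2 called Atf6. Atf6 encodes the ER-bound precursor of a transcription factor. It had 1166, 949 and 928 in PMN-MDSC LD and 1420.0, 1346 and 1381 in PMN-MDSC Ctrl, all 3 LD libraries below all Ctrl libraries, and fell by 0.45 ± 0.10 (limma adjusted p 0.00642). In M-MDSC it had 2312, 2429 and 2409 in LD and 3108, 2766 and 3115 in Ctrl, also without overlap, at -0.33 ± 0.10, limma adjusted p 0.0825; it passed without PMN-MDSC LD replicate 1 (adjusted p 0.023). The difference between the 2 changes was 0.13 ± 0.13 and did not pass.

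Eif2ak3 encodes PERK, the ER kinase that phosphorylates translation initiation factor eIF2. It had 2720.0, 3261 and 3517 in PMN-MDSC LD and 4161, 4208 and 4037 in PMN-MDSC Ctrl, without overlap, and fell by 0.39 ± 0.11 (limma adjusted p 0.0305). The call was lost without PMN-MDSC Ctrl replicate 1 (adjusted p 0.0695), PMN-MDSC Ctrl replicate 2 (adjusted p 0.0878), PMN-MDSC Ctrl replicate 3 (adjusted p 0.0728), PMN-MDSC LD replicate 1 (adjusted p 0.0822) or PMN-MDSC LD replicate 2 (adjusted p 0.0529), with no minimum level (adjusted p 0.0561), and without LD replicate 1 of both populations (adjusted p 0.0764). Ern1, the IRE1 kinase and nuclease, varied within LD groups: it had 791, 1237 and 1205 in PMN-MDSC LD and 1549.5, 1426 and 1743 in PMN-MDSC Ctrl, and 1284, 2541 and 2129 in M-MDSC LD and 2742, 1981 and 2422 in M-MDSC Ctrl. LD replicate 1 was its lowest LD library in both populations. Ern1 did not pass in PMN-MDSC (-0.57 ± 0.22, limma adjusted p 0.0946) or in M-MDSC (-0.31 ± 0.22, limma adjusted p 0.679). The PMN-MDSC change passed without M-MDSC LD replicate 1 (adjusted p 0.0293), with total-read scaling (adjusted p 0.0466) and fitted on the PMN-MDSC libraries alone (adjusted p 0.0372). Xbp1, whose total mRNA was counted here without telling spliced from unspliced forms, had 2236, 2296 and 2029 in PMN-MDSC LD and 2741, 2404 and 2101 in PMN-MDSC Ctrl. It changed by -0.14 ± 0.13 there and by -0.11 ± 0.13 in M-MDSC, with no call.

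Atf4, the transcription factor translated under eIF2 phosphorylation, had 1323, 1431 and 1508 in PMN-MDSC LD and 1553, 1864 and 1954 in PMN-MDSC Ctrl, without overlap but short of the threshold (-0.33 ± 0.12, limma adjusted p 0.0792); it passed without PMN-MDSC Ctrl replicate 1 (adjusted p 0.0416). In M-MDSC its change was 0.20 ± 0.12, limma adjusted p 0.58. Ddit3 encodes CHOP, a pro-apoptotic factor induced by ATF4; its exons overlap those of Mars on the opposite strand, and reads of the pair cannot be told apart if the libraries are unstranded, which the labels do not state. Ddit3 had 127, 104 and 110.3 in M-MDSC LD and 88.8, 65.1 and 80.8 in M-MDSC Ctrl, all LD libraries above all Ctrl libraries, with a change of 0.54 ± 0.16, limma adjusted p 0.0913, that did not pass. In PMN-MDSC it had 728, 762 and 735 in LD and 933, 965 and 736 in Ctrl, with no call (-0.23 ± 0.16, limma adjusted p 0.345).

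Ppp1r15a, or GADD34, brings a phosphatase to eIF2 and so restores translation, and it showed the largest fall of the 39 genes in PMN-MDSC. It had 283, 216 and 262 in PMN-MDSC LD and 467, 561 and 640.1 in PMN-MDSC Ctrl. Every LD library was below every Ctrl library, and the gene fell by 1.13 ± 0.21 on the log2 scale (limma adjusted p 0.00388). In M-MDSC it had 145, 206 and 170.4 in LD and 228, 132 and 146 in Ctrl, with overlapping groups (0.07 ± 0.21, limma adjusted p 0.973). The difference between the 2 changes, 1.20 ± 0.30, limma adjusted p 0.0561, missed the threshold, but passed without M-MDSC Ctrl replicate 1 (adjusted p 0.027), M-MDSC LD replicate 1 (adjusted p 0.041) or PMN-MDSC LD replicate 1 (adjusted p 0.0293). Immediate-early genes moved with Ppp1r15a: 6 of 10 fell in PMN-MDSC, where their sum was 43976 to 50633 in LD and 64987 to 77019 in Ctrl. In M-MDSC 2 of the 10 rose, with sums of 10977 to 13660.4 in LD and 10398 to 12779.9 in Ctrl. Their part in the Ppp1r15a change was not tested.

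Chac1, a glutathione-degrading enzyme induced by ATF4, separated the populations by orders of magnitude. It had 354, 329.5 and 376 in PMN-MDSC LD and 552, 688 and 698 in PMN-MDSC Ctrl; groups did not overlap, and the change of -0.86 ± 0.76, limma adjusted p 0.475, was short of the threshold. Fitted on the PMN-MDSC libraries alone, the same change passed (limma adjusted p 0.00242). In M-MDSC 33 reads were found in the LD libraries and 1 in the Ctrl libraries, or 8.0, 18.7 and 0 normalized counts in LD and 0.6, 0 and 0 in Ctrl. The ratio of LD to Ctrl was 40.4, with a 95% counting interval of 6.76 to 1640.0 that covers counting error only. M-MDSC LD replicate 3 had none, and the change of 2.25 ± 0.76, limma adjusted p 0.15, did not pass; it passed without M-MDSC LD replicate 3 (3.49, adjusted p 0.00102) and with edgeR (adjusted p 0.0271) and DESeq2 (adjusted p 0.00646). Trib3, a pseudokinase that dampens ATF4 signalling, was rare throughout, at 23.0, 35.3 and 50.5 in PMN-MDSC LD, 58.1, 31.6 and 22.3 in PMN-MDSC Ctrl, 5.1, 0.8 and 3.9 in M-MDSC LD and 5.2, 1.0 and 3.9 in M-MDSC Ctrl. It changed by 0.00 ± 0.66 in PMN-MDSC and -0.04 ± 0.66 in M-MDSC, without a call.

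**Figure D2:**
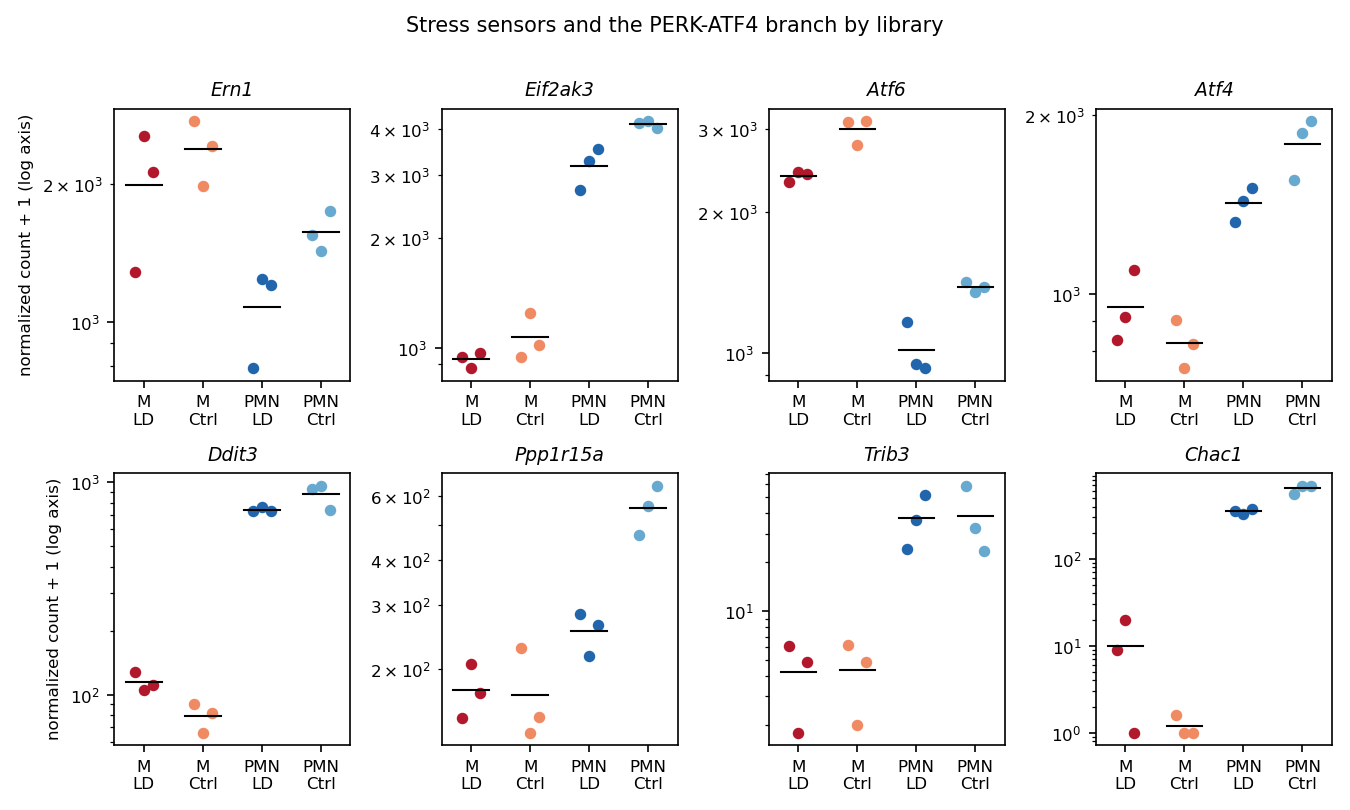
Normalized count + 1 (log axis) of 8 genes, the sensors Ern1, Eif2ak3 and Atf6 and the PERK-ATF4 branch, in each of the 12 libraries by group, with M-MDSC LD, M-MDSC Ctrl, PMN-MDSC LD and PMN-MDSC Ctrl from left to right and the group mean as a bar. Eif2ak3, Ddit3 and Chac1 are higher in every PMN-MDSC library than in any M-MDSC library, and Atf6 is lower, while Ppp1r15a is highest in the 3 PMN-MDSC Ctrl libraries (467 to 640.1).

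The calls among the 15 ER chaperones and folding enzymes after lymphodepletion stand beside 3.01% of all genes called in M-MDSC and 15.7% in PMN-MDSC. At those shares few calls fall in a list of 15. In M-MDSC 0 of 15 passed with limma, edgeR or DESeq2, and 2 had an unadjusted p under 0.05; the median log2 change was -0.14 (range -0.44 to 0.16). In PMN-MDSC 1 of 15 rose and 0 fell with limma, 4 had an unadjusted p under 0.05, and edgeR and DESeq2 each called 1 higher (P4hb) and 1 lower (Hspa5). P4hb is protein disulfide isomerase, which forms and rearranges disulfide bonds. It had 1458, 1246 and 1077 in PMN-MDSC LD and 959, 974 and 779 in PMN-MDSC Ctrl, all LD libraries above all Ctrl libraries, and rose by 0.48 ± 0.12, limma adjusted p 0.0177. The call was lost without PMN-MDSC Ctrl replicate 3 (adjusted p 0.0867) and with libraries scaled to total reads (adjusted p 0.058). In M-MDSC P4hb had 3150.5, 2913 and 3307 in LD and 3389, 4004 and 3424 in Ctrl, lower in each LD library (-0.20 ± 0.12, limma adjusted p 0.548). The difference between the populations was -0.68 ± 0.17, limma adjusted p 0.0542, just short of the threshold. It passed without PMN-MDSC LD replicate 1 (limma adjusted p 0.0456) or PMN-MDSC LD replicate 3 (limma adjusted p 0.0373). It also passed with a pseudocount of 8 (limma adjusted p 0.0474), TMM scaling (limma adjusted p 0.0498) and DESeq2 (adjusted p 0.0113).

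Hspa5, or BiP, the HSP70 of the ER that holds the sensors inactive, had 3957, 4516 and 4376 in M-MDSC LD and 3875, 4821 and 4022 in M-MDSC Ctrl, overlapping groups with a change of 0.02 ± 0.10, limma adjusted p 0.986. In PMN-MDSC it had 4005, 3768 and 3459.5 in LD and 4444, 4538 and 4596 in Ctrl. Every LD library there was below every Ctrl library, but the change of -0.28 ± 0.10, limma adjusted p 0.0658, did not pass; it passed without M-MDSC Ctrl replicate 2 (adjusted p 0.042) or PMN-MDSC LD replicate 1 (adjusted p 0.0386). Hsp90b1 (GRP94, the HSP90 of the ER), Calr and Canx (lectin chaperones of glycoproteins) had M-MDSC changes of -0.14 ± 0.08, 0.00 ± 0.12 and -0.19 ± 0.11, and PMN-MDSC changes of 0.08 ± 0.08, 0.10 ± 0.12 and 0.04 ± 0.11, in that order. The disulfide isomerases Pdia3, Pdia4 and Pdia6 had M-MDSC changes of -0.20 ± 0.10, -0.44 ± 0.20 and -0.32 ± 0.12, and PMN-MDSC changes of 0.26 ± 0.10, -0.07 ± 0.20 and 0.13 ± 0.12. Of these, Pdia3 passed in PMN-MDSC without PMN-MDSC Ctrl replicate 1 (adjusted p 0.0482). The HSP110-like Hyou1, the HSP40 proteins Dnajb9, Dnajc3 and Dnajb11 and the secreted stress protein Manf ranged from -0.18 to 0.16 in M-MDSC and from -0.17 to 0.06 in PMN-MDSC. Creld2 and Sdf2l1, both induced by ER stress, were lower in PMN-MDSC LD on average, at -0.52 ± 0.20, limma adjusted p 0.0891, for Creld2 and -0.57 ± 0.43, limma adjusted p 0.39, for Sdf2l1. Neither passed in the full set, but without PMN-MDSC LD replicate 1 Creld2 was at -0.66 (adjusted p 0.0322) and Sdf2l1 at -1.23 (adjusted p 0.00657).

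The 4 genes of ER-associated degradation, which moves misfolded protein out of the ER for proteasomal destruction, gave 0 calls in the main limma fit in either population. Over all genes 3.01% were called in M-MDSC and 15.7% in PMN-MDSC, shares at which a list of 4 can hold no call. In M-MDSC 1 of the 4 had an unadjusted p under 0.05 and both edgeR and DESeq2 called 0. In PMN-MDSC 2 had an unadjusted p under 0.05, edgeR called 1 lower (Sel1l), and DESeq2 called 1 higher (Edem1) and 1 lower (Sel1l). Edem1, a lectin that picks glycoproteins for degradation, had 3488, 3508 and 3996 in PMN-MDSC LD and 3036, 3206 and 3031 in PMN-MDSC Ctrl (0.24 ± 0.08, limma adjusted p 0.0529), higher in each LD library. In M-MDSC it had 2785, 2873 and 2923 in LD and 3278, 3479 and 3185 in Ctrl (-0.21 ± 0.08, limma adjusted p 0.22), lower in each LD library. The difference between these opposite changes was -0.45 ± 0.11, limma adjusted p 0.0511, at the edge of the threshold, and both it and the PMN-MDSC change passed without PMN-MDSC LD replicate 1 (adjusted p 0.0223 and 0.0357). Sel1l and Syvn1, which together form the HRD1 ubiquitin ligase, changed by -0.25 ± 0.08 and 0.00 ± 0.13 in PMN-MDSC and by -0.02 ± 0.08 and 0.02 ± 0.13 in M-MDSC. Sel1l was lower in each PMN-MDSC LD library and just short of the threshold (limma adjusted p 0.0505). It passed with a pseudocount of 0.5 and with a mean of at least 50 (limma adjusted p 0.0447). So it did with TMM (limma adjusted p 0.0477), upper-quartile (limma adjusted p 0.041) and total-read scaling (limma adjusted p 0.0194). Herpud1, the partner of Sel1l and Syvn1 in the ER membrane, changed by -0.13 ± 0.14 in PMN-MDSC and -0.06 ± 0.14 in M-MDSC.

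**Figure D3:**
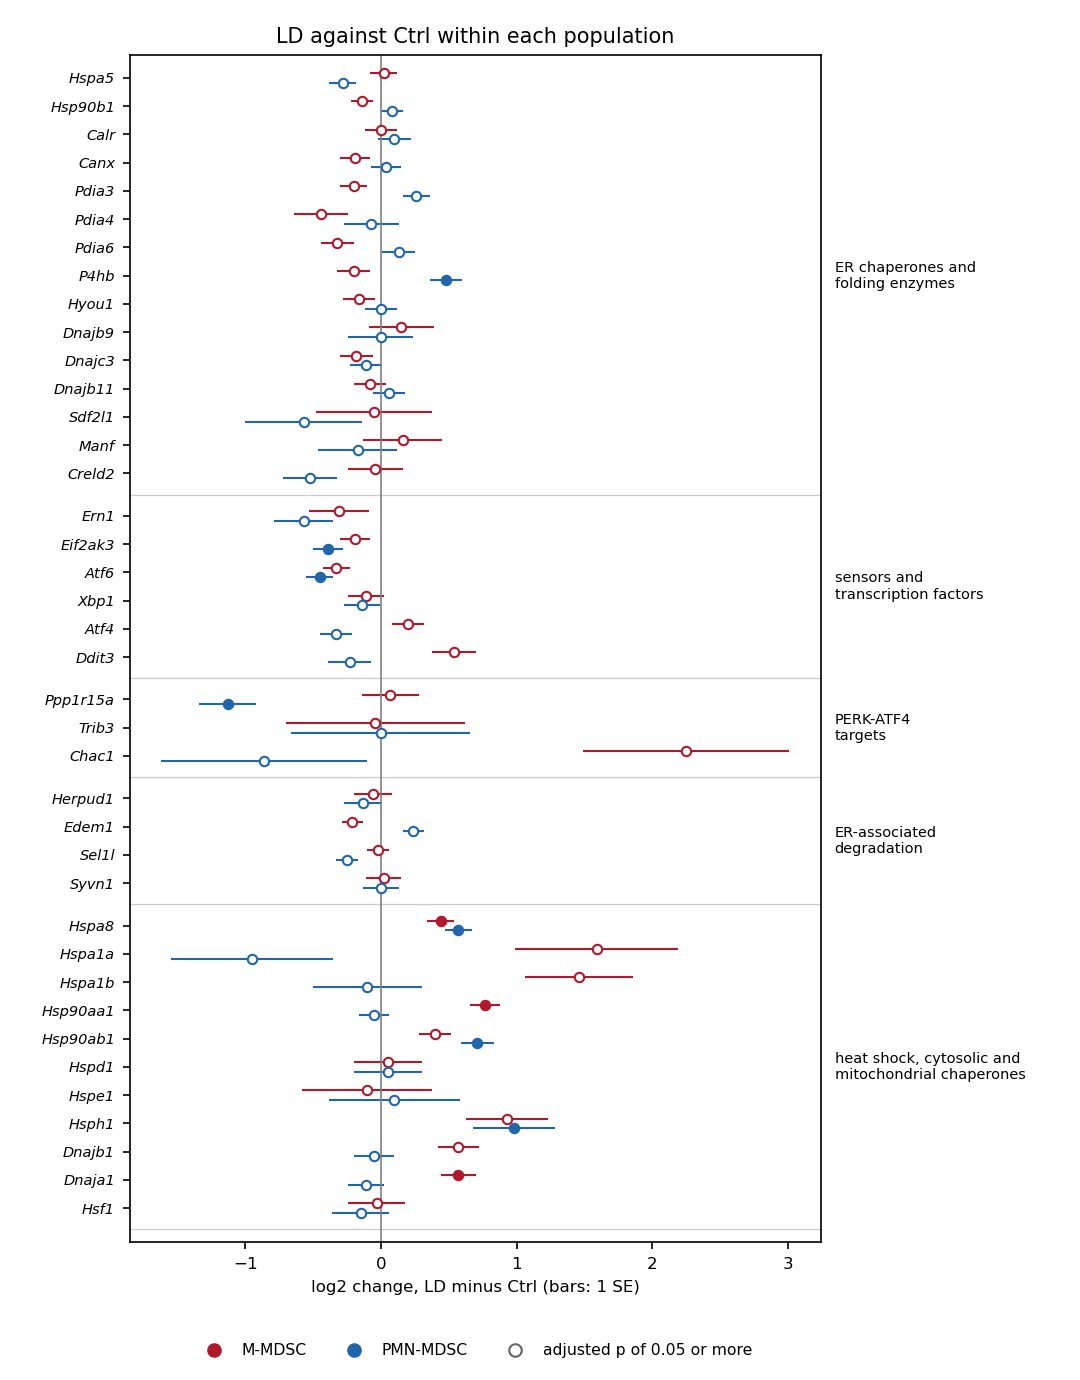
Log2 change of LD against Ctrl, with bars of 1 SE, for all 39 genes in M-MDSC (red) and PMN-MDSC (blue), ordered by role; filled points have an adjusted p under 0.05. The filled points are 3 in M-MDSC, all among the cytosolic chaperones and above 0, and 7 in PMN-MDSC, 4 above and 3 below 0, while ER chaperones lie between -0.57 and 0.48.

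Further genes of these pathways, 158 in 6 lists of which 144 were tested, were called more often in PMN-MDSC than in M-MDSC, as were all genes. In M-MDSC 2 of 144 rose and 0 fell with limma, 16 had an unadjusted p under 0.05, edgeR called 3 higher and 0 lower, and DESeq2 5 higher and 2 lower. They were Cebpb, a transcription factor of myeloid cells and partner of ATF4, at 6004, 7415 and 6746 in M-MDSC LD and 4908, 5403 and 4808 in M-MDSC Ctrl (0.41 ± 0.10, limma adjusted p 0.0357), and Stip1, the HOP cochaperone that links HSP70 to HSP90. Stip1 had 583, 584 and 634 in M-MDSC LD and 320.4, 406 and 418 in M-MDSC Ctrl (0.66 ± 0.16, limma adjusted p 0.0414), and groups did not overlap for either gene. The Cebpb call was lost without M-MDSC Ctrl replicate 1 or 3, or without M-MDSC LD replicate 2 or 3, or without PMN-MDSC Ctrl replicate 1, 2 or 3 (adjusted p 0.0512 to 0.151). The Stip1 call was lost without M-MDSC Ctrl replicate 1, 2 or 3, or without M-MDSC LD replicate 1, 2 or 3, or without PMN-MDSC Ctrl replicate 2 or 3 (adjusted p 0.0552 to 0.195). In PMN-MDSC 15 of 144 rose and 12 fell, or 18.8% called beside 15.7% of all genes. Of 34 other heat shock and cytosolic chaperone genes, 7 rose and 3 fell, beside a median change of 0.08. Hspa13, an HSP70 of the ER and microsomes, had 181, 188 and 210.3 in PMN-MDSC LD and 90.8, 92.3 and 119.7 in PMN-MDSC Ctrl (0.94 ± 0.19, limma adjusted p 0.00594). Hsf2, a second heat shock transcription factor, had 2.7, 2.9 and 4.2 in PMN-MDSC LD and 14.3, 15.8 and 17.6 in PMN-MDSC Ctrl (-1.99 ± 0.34, limma adjusted p 0.00194). Hspb11 had 0 reads in PMN-MDSC LD and 27 in PMN-MDSC Ctrl, at least 6.99-fold lower in LD against a floor of 3 reads over the group.

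Of 39 other genes of ER folding, glycosylation and translocation, 3 rose and 3 fell in PMN-MDSC LD. Ssr3, of the translocon-associated complex, had 1036, 1021 and 1105 in PMN-MDSC LD and 851, 721 and 637 in PMN-MDSC Ctrl (0.53 ± 0.11, limma adjusted p 0.00632), and Sec63, a translocation factor, had 819.6, 758 and 763 in PMN-MDSC LD and 994, 982 and 1136 in PMN-MDSC Ctrl (-0.41 ± 0.10, limma adjusted p 0.0155). The Sec63 call was lost without PMN-MDSC Ctrl replicate 3 (adjusted p 0.073). Selm, a selenoprotein of the ER, rested on 15 reads in PMN-MDSC LD and 2 in PMN-MDSC Ctrl, a ratio of 9.65 with a 95% counting interval of 2.24 to 87.0. Selm too met the minimum mean through its M-MDSC libraries. Of 21 other ER-associated degradation genes 2 rose and 0 fell with limma, among them Ube2j1, a ubiquitin-conjugating enzyme (0.53 ± 0.10, limma adjusted p 0.00306). At an unadjusted p under 0.05 that list counted 7 genes, and edgeR and DESeq2 each called 1 lower. Of 16 other regulators, 2 rose and 3 fell. Ppp1r15b, the constitutive partner of the eIF2 phosphatase, had 4472, 5261 and 5792 in PMN-MDSC LD and 3733, 3509 and 3421 in PMN-MDSC Ctrl (0.53 ± 0.10, limma adjusted p 0.00388), so it rose where Ppp1r15a fell. Eif2ak2, the kinase PKR, rose by 0.67 ± 0.13, limma adjusted p 0.00388, and Map3k5, the stress kinase ASK1, fell to 6674, 7001 and 6390.3 in PMN-MDSC LD, against 10025, 10138 and 12532 in PMN-MDSC Ctrl (-0.70 ± 0.10, limma adjusted p 7.7e-04).

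Of 22 other ATF4 and CHOP targets, 1 rose and 2 fell in PMN-MDSC LD. Mthfd2, of mitochondrial one-carbon metabolism, rose by 0.94 ± 0.22, limma adjusted p 0.0128, Nars, a tRNA synthetase, fell by 0.48 ± 0.12 (limma adjusted p 0.0139), and Atf3 fell to 391, 466 and 537 in PMN-MDSC LD, against 709, 699 and 701 in PMN-MDSC Ctrl (-0.61 ± 0.15, limma adjusted p 0.0144). The Mthfd2 call was lost without PMN-MDSC Ctrl replicate 3 (adjusted p 0.0617), and the Nars call was lost without PMN-MDSC Ctrl replicate 2, or without PMN-MDSC LD replicate 2 (adjusted p 0.0517 to 0.0538). Atf3 is also one of the 10 immediate-early genes above. Of 12 mitochondrial chaperones and proteases 1 fell, Lonp1, a matrix protease, at 82.5, 66.2 and 92.6 in PMN-MDSC LD and 151, 167 and 142 in PMN-MDSC Ctrl (-0.93 ± 0.17, limma adjusted p 0.0027).

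The larger contrast lay between the populations themselves. M-MDSC had more of most ER chaperones and of the mitochondrial and several cytosolic chaperones, and PMN-MDSC had more of Eif2ak3, Ddit3, Trib3 and Chac1, in LD and in Ctrl mice. In LD mice 24 of the 39 genes were higher and 11 lower in M-MDSC, where 74.8% of all genes were called (38.8% higher and 36.1% lower). In Ctrl mice 20 were higher and 11 lower, with 75.6% of all genes called (38.8% higher and 36.8% lower). Groups did not overlap for 24 genes higher and 11 lower in LD (38.7% and 36.5% of all genes), and for 21 higher and 11 lower in Ctrl (41.9% and 39.1%). The median difference over the 39 genes was 0.95 in LD and 0.84 in Ctrl, beside 0.10 and 0.06 over all genes. These differences depend on the scaling, and the size factors leave normalized totals of 8572575 to 9397397 in M-MDSC and 13715662 to 15808125 in PMN-MDSC. With libraries scaled to total reads, the median of all genes shifted by 0.73 in LD and 0.62 in Ctrl, and calls split into 6531 higher and 2337 lower in LD and 6086 higher and 2574 lower in Ctrl, against 4310 and 4013 in LD and 4317 and 4090 in Ctrl with the deposited scaling.

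Of the 15 ER chaperones, 13 were higher and 0 lower in M-MDSC in LD mice, and 12 were higher and 1 lower in Ctrl mice, with median differences of 1.44 and 1.90. For 0 lower in LD, edgeR also called 0 lower and 14 higher and DESeq2 0 lower and 13 higher, and 14 of the 15 had an unadjusted p under 0.05 in either direction. Hsp90b1 had 5743, 6511 and 6280.4 in M-MDSC LD and 2038, 1808 and 1859 in PMN-MDSC LD, and 6614, 7016 and 6747 in M-MDSC Ctrl and 1847, 1873 and 1692 in PMN-MDSC Ctrl (1.70 ± 0.08 in LD and 1.91 ± 0.08 in Ctrl, limma adjusted p 1.9e-10 and 4.8e-11). Pdia6 had 1038, 1148 and 1336 in M-MDSC LD and 307, 297 and 290.3 in PMN-MDSC LD, and 1319.7, 1673 and 1400.2 in M-MDSC Ctrl and 273, 296 and 249 in PMN-MDSC Ctrl (1.97 ± 0.12 in LD and 2.42 ± 0.12 in Ctrl, limma adjusted p 2.6e-09 and 2.7e-10). Pdia3 differed by 1.44 ± 0.10 in LD and 1.90 ± 0.10 in Ctrl, limma adjusted p 4.9e-09 and 2.3e-10, and Hyou1 by 1.79 ± 0.12 in LD and 1.96 ± 0.12 in Ctrl, limma adjusted p 3.9e-09 and 1.5e-09. The population groups did not overlap for any of these 4 genes. The other ER chaperones called higher in M-MDSC ranged from 0.56 (Creld2) to 4.41 (Sdf2l1) in LD and from 0.85 (Dnajb11) to 3.89 (Sdf2l1) in Ctrl. Sdf2l1, a cochaperone of BiP, was at 33.8, 7.4 and 8.4 in PMN-MDSC LD, and its LD difference was 5.06 without PMN-MDSC LD replicate 1. Creld2 passed in LD, and lost the call without M-MDSC LD replicate 3 (adjusted p 0.0715) or PMN-MDSC LD replicate 2 (adjusted p 0.0689), with upper-quartile scaling (adjusted p 0.0851) and fitted on the 2 groups alone (adjusted p 0.0621). In Ctrl it did not pass (0.09 ± 0.20, limma adjusted p 0.69), except that it did with total-read scaling (0.71, adjusted p 0.00586).

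Hspa5 was called in neither comparison with the deposited scaling and limma. It had 3957, 4516 and 4376 in M-MDSC LD and 4005, 3768 and 3459.5 in PMN-MDSC LD, and 3875, 4821 and 4022 in M-MDSC Ctrl and 4444, 4538 and 4596 in PMN-MDSC Ctrl, differences of 0.19 ± 0.10 in LD and -0.10 ± 0.10 in Ctrl, limma adjusted p 0.0801 and 0.35. Its partners Hsp90b1, Pdia6, Sdf2l1 and Hyou1 each differed by more than 1.5 on the log2 scale. In LD Hspa5 passed, higher in M-MDSC, without M-MDSC Ctrl replicate 2 (adjusted p 0.0486), M-MDSC LD replicate 1 (adjusted p 0.0421) or PMN-MDSC LD replicate 1 (adjusted p 0.0427), with edgeR (0.29, adjusted p 0.017) and with TMM scaling (0.27, adjusted p 0.0219). In Ctrl it passed, lower in M-MDSC, with upper-quartile scaling (-0.29, adjusted p 0.0177). With libraries scaled to total reads, Hspa5 was higher in M-MDSC, by 0.93 in LD and 0.53 in Ctrl. The first of these is above and the second below the shift of all genes (0.73 and 0.62). Dnajb9 (ERdj4), which represses IRE1, was lower in M-MDSC in Ctrl mice (-0.66 ± 0.24, limma adjusted p 0.0204) and not called in LD (-0.51 ± 0.24, limma adjusted p 0.0644); the Ctrl call was lost without M-MDSC Ctrl replicate 1 (adjusted p 0.0531), M-MDSC Ctrl replicate 3 (adjusted p 0.0887), PMN-MDSC Ctrl replicate 2 (adjusted p 0.0503) or PMN-MDSC Ctrl replicate 3 (adjusted p 0.0866), and with total-read scaling the Ctrl difference was -0.03 (adjusted p 0.907). In LD it passed without M-MDSC LD replicate 3 (adjusted p 0.00702) and with upper-quartile scaling (adjusted p 0.0156). Of 39 other genes of ER folding, glycosylation and translocation, 31 were higher and 3 lower in LD, and 33 higher and 3 lower in Ctrl. They include Txndc5, a disulfide isomerase, at 4.47 ± 0.25 in LD and 4.40 ± 0.25 in Ctrl, limma adjusted p 7.4e-10 and 7.8e-10. Txndc5 is also on the plasma cell marker list, of which Igj, the antibody J chain, had 1.4, 0 and 2.0 in M-MDSC LD, 13.5, 0 and 0 in PMN-MDSC LD, 78.5, 334 and 140.2 in M-MDSC Ctrl and 18.4, 45.7 and 20.8 in PMN-MDSC Ctrl, while Mzb1 was at 0 in all 6 LD libraries.

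The 11 plasma cell markers in the table, Txndc5 among them, summed to 1689 to 2317 in M-MDSC LD, 111 to 178 in PMN-MDSC LD, 2236 to 2608 in M-MDSC Ctrl and 235 to 271 in PMN-MDSC Ctrl. Of the 7 tested, 5 were higher and 1 lower in M-MDSC in LD, and 6 higher and 1 lower in Ctrl. In LD, Mzb1 and Pou2af1 were at 0 in all 6 libraries. Irf4, a transcription factor of several blood lineages, had 454, 722 and 774 in M-MDSC LD and 18.9, 17.7 and 8.4 in PMN-MDSC LD, and Prdm1 had 193, 279 and 247 in M-MDSC LD and 21.6, 58.8 and 35.1 in PMN-MDSC LD. Slamf7 had 388, 281 and 333 in M-MDSC LD and 33.8, 45.6 and 7.0 in PMN-MDSC LD, and Sdc1 had 55.1, 71.3 and 80.8 in M-MDSC LD and 18.9, 1.5 and 5.6 in PMN-MDSC LD. The part of these markers in the ER chaperone differences was not tested. In LD, Ddost, a subunit of the oligosaccharyltransferase, differed by 2.63 ± 0.20, limma adjusted p 1.9e-08, and Prkcsh, a glucosidase subunit, by 1.73 ± 0.13, limma adjusted p 1.6e-08. In Ctrl, Spcs3, of the signal peptidase, differed by 1.99 ± 0.13, limma adjusted p 3.1e-09, and Ssr3 by 1.65 ± 0.11, limma adjusted p 4.6e-09.

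Promoter sequence was searched for elements of these pathways. RefSeq promoter windows (GRCm38.p6, 250 bases before to 50 after a start site) were matched for 32 of the 39 genes; Hyou1, Hsf1, Hsp90aa1, Atf6, Manf, Hsp90ab1 and Hspa8 had no entry. The ER stress response element, CCAAT and CCACG with 9 bases of any kind between them, was searched on both strands; it is the site at which ATF6 and NF-Y act. It was found in 8 of the 32 genes (25.0%) and in 37 of 27025 genes with a promoter window (0.137%). A match describes the letters and is not evidence of binding. The matches are shown 5′ to 3′ on the strand that carries the motif, with its fixed letters in capitals.
Hspa5 chr2:34772025-34772043: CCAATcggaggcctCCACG
Hsp90b1 chr10:86705638-86705656: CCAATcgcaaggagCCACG
Hsp90b1 chr10:86705533-86705551: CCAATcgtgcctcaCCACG
Calr chr8:84847075-84847093: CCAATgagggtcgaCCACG
Canx chr11:50325800-50325818: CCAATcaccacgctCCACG
Pdia6 chr12:17266491-17266509: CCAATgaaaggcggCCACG
Dnajc3 chr14:118937827-118937845: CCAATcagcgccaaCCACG
Creld2 chr15:88819520-88819538: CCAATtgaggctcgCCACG
Syvn1 chr19:6046532-6046550: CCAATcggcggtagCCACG

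Of these element-bearing genes, Hsp90b1, Calr, Canx, Pdia6 and Dnajc3 were higher in M-MDSC with the deposited scaling, and Hspa5 was not called. Creld2 passed in LD and not in Ctrl with that scaling, and Syvn1 was lower in M-MDSC. The part of the element in these differences was not tested. The related element, ATTGG and CCACG with 1 base between them, also searched on both strands, was found in Dnajb11 and Herpud1 among the 32 genes and in 0.0444% of all genes. The promoters of Hspa5 and Hsp90b1 are given as a pair of element-bearing genes with unequal population differences, 250 bases before the start site on the strand of the gene. Capitals mark the fixed letters of the element, which in Hsp90b1 occurs once on each strand. Only exact matches were counted and marked, and near matches stay in lower case.
Hspa5 promoter, chr2:34771840-34772089, plus strand: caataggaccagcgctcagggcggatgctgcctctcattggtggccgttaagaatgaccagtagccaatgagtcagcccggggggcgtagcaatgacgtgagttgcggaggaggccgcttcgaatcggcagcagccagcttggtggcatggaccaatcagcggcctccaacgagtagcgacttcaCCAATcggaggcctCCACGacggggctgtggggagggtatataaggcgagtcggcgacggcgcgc
Hsp90b1 promoter, chr10:86705445-86705694, minus strand: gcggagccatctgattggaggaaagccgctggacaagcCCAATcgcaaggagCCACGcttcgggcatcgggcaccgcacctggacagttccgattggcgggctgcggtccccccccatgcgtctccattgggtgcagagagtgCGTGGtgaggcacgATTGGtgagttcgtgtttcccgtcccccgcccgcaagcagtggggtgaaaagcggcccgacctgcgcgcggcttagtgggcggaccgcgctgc

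Among the sensors, Atf6 and Ern1 were higher in M-MDSC, and Eif2ak3, Atf4 and Ddit3 were higher in PMN-MDSC, in LD and in Ctrl mice. Eif2ak3 had 944, 876 and 964 in M-MDSC LD and 2720.0, 3261 and 3517 in PMN-MDSC LD, and 944, 1249 and 1014 in M-MDSC Ctrl and 4161, 4208 and 4037 in PMN-MDSC Ctrl (-1.76 ± 0.11 in LD and -1.96 ± 0.11 in Ctrl, limma adjusted p 3.2e-09 and 9.8e-10). Ddit3 differed by -2.70 ± 0.16 in LD and -3.47 ± 0.16 in Ctrl, limma adjusted p 1.4e-09 and 8.9e-11. Atf6 differed by 1.24 ± 0.10 in LD and 1.11 ± 0.10 in Ctrl, limma adjusted p 2.2e-08 and 7.0e-08, and Atf4 by -0.59 ± 0.12 in LD and -1.12 ± 0.12 in Ctrl, limma adjusted p 4.5e-04 and 9.0e-07, although with total-read scaling the Atf4 difference in LD was 0.14. Population groups did not overlap for any of these 4 genes. Ern1 differed by 0.85 ± 0.22 in LD and 0.59 ± 0.22 in Ctrl, limma adjusted p 0.00276 and 0.0246, and its Ctrl call was lost without M-MDSC Ctrl replicate 1 (adjusted p 0.0961), M-MDSC Ctrl replicate 3 (adjusted p 0.0596), PMN-MDSC Ctrl replicate 1 (adjusted p 0.0578) or PMN-MDSC Ctrl replicate 2 (adjusted p 0.0798) and with upper-quartile scaling (adjusted p 0.121). Xbp1 gave no call in LD (0.15 ± 0.13, limma adjusted p 0.311) or Ctrl (0.12 ± 0.13, limma adjusted p 0.396). It passed in LD without M-MDSC LD replicate 1 (adjusted p 0.0401) and without LD replicate 1 of both populations (adjusted p 0.0422). With total-read scaling it was higher in M-MDSC in both, by 0.88 in LD and 0.75 in Ctrl (adjusted p 1.4e-05 and 6.8e-05).

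All 3 PERK-ATF4 targets were lower in M-MDSC by limma in LD and in Ctrl, where edgeR called 2 of the 3 in LD. Chac1 had 33 reads in M-MDSC LD against 754 in PMN-MDSC LD, so PMN-MDSC was 38.3-fold higher with a 95% counting interval of 27.0 to 56.0. In Ctrl mice it had 1 read in M-MDSC against 1761 in PMN-MDSC, a 2800.0-fold ratio with an interval of 503 to 111000.0. The fitted differences were -5.98 ± 0.76 in LD and -9.09 ± 0.76 in Ctrl, limma adjusted p 5.1e-06 and 5.5e-08. The LD value was -6.88 without M-MDSC LD replicate 2 and -4.73 without M-MDSC LD replicate 3. Trib3 differed by -3.22 ± 0.66 in LD and -3.19 ± 0.66 in Ctrl, limma adjusted p 4.6e-04 and 5.0e-04. Ppp1r15a differed by -0.55 ± 0.21 in LD and -1.75 ± 0.21 in Ctrl, limma adjusted p 0.031 and 3.6e-06, with the LD call lost without M-MDSC LD replicate 1 (adjusted p 0.113), M-MDSC LD replicate 3 (adjusted p 0.0643), PMN-MDSC LD replicate 1 (adjusted p 0.0883) or PMN-MDSC LD replicate 3 (adjusted p 0.0728), with edgeR (adjusted p 0.069) and with TMM scaling (adjusted p 0.0614). With total-read scaling its LD difference was 0.18. The composite element of ATF4 and C/EBP, TGATG and AA with 1 base of any kind between them, was also searched on both strands. It was found in Trib3, Chac1 and Herpud1, or 9.4% of the 32 genes with a promoter window, and in 4.51% of all genes. The part of that element in these differences was not tested. Of 22 other ATF4 and CHOP targets, 10 were higher and 4 lower in M-MDSC in LD, and 9 higher and 8 lower in Ctrl. Slc7a11, the cystine transporter, differed by -5.84 ± 0.27 in LD and -5.87 ± 0.27 in Ctrl, limma adjusted p 1.2e-10 and 9.2e-11, and Sesn2, a stress-induced inhibitor of growth signalling, by -3.55 ± 0.14 in LD and -3.18 ± 0.14 in Ctrl, limma adjusted p 2.3e-11 and 5.3e-11. Nupr1, a stress-induced chromatin factor, differed in the other direction, by 3.93 ± 0.32 in LD and 3.95 ± 0.32 in Ctrl, limma adjusted p 4.8e-08 and 4.4e-08. Immediate-early genes differed in the same direction as Chac1: 8 of 10 were lower in M-MDSC in LD and 9 of 10 in Ctrl, with sums of 10977 to 13660.4 in M-MDSC LD, 43976 to 50633 in PMN-MDSC LD, 10398 to 12779.9 in M-MDSC Ctrl and 64987 to 77019 in PMN-MDSC Ctrl. Their part in these differences was not tested.

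With the deposited scaling, genes of ER-associated degradation were slightly lower in M-MDSC, 3 of 4 in LD (Edem1, Syvn1 and Herpud1) and 2 of 4 in Ctrl (Syvn1 and Herpud1). Over all genes 36.1% were called lower in LD and 36.8% in Ctrl. Total-read scaling turned each difference of these named genes to a positive value of 0.13 to 0.38, the shift of all genes being 0.73 in LD and 0.62 in Ctrl. So scaled, Edem1 (0.38, limma adjusted p 1.9e-04) and Herpud1 (0.35, limma adjusted p 0.026) passed as higher in M-MDSC in LD. Syvn1 in LD and in Ctrl, and Herpud1 in Ctrl, did not pass with that scaling. With 0 higher by limma under the deposited scaling, edgeR and DESeq2 also called 0 higher in LD and in Ctrl. Unadjusted p was under 0.05 for 3 of 4 in LD and 2 of 4 in Ctrl. Edem1 had 2785, 2873 and 2923 in M-MDSC LD and 3488, 3508 and 3996 in PMN-MDSC LD (-0.35 ± 0.08, limma adjusted p 1.0e-03), and it was not called in Ctrl (0.10 ± 0.08, limma adjusted p 0.266), where it was higher in M-MDSC with TMM scaling (0.20, adjusted p 0.0323) and with total-read scaling (0.73). Syvn1 differed by -0.48 ± 0.13 in LD and -0.50 ± 0.13 in Ctrl, limma adjusted p 0.00412 and 0.00323. Herpud1 differed by -0.38 ± 0.14 in LD and -0.45 ± 0.14 in Ctrl, limma adjusted p 0.0223 and 0.00887; its LD call was lost without M-MDSC LD replicate 1 (adjusted p 0.0556), M-MDSC LD replicate 2 (adjusted p 0.0667), PMN-MDSC LD replicate 2 (adjusted p 0.0537) or PMN-MDSC LD replicate 3 (adjusted p 0.0531), with edgeR (adjusted p 0.0798) and with TMM scaling (adjusted p 0.0515), and its Ctrl call without M-MDSC Ctrl replicate 3 (adjusted p 0.0594). Sel1l gave no call in LD (0.08 ± 0.08, limma adjusted p 0.4) or Ctrl (-0.16 ± 0.08, limma adjusted p 0.0933); with total-read scaling it was higher in M-MDSC, by 0.81 and 0.47, and with upper-quartile scaling it was lower in Ctrl (-0.34, adjusted p 0.00201). Of 21 other degradation genes 3 were higher and 14 lower in LD, and 6 higher and 11 lower in Ctrl, among them Ngly1, which strips glycans from retrotranslocated protein (-2.06 ± 0.11 in LD and -1.84 ± 0.11 in Ctrl, limma adjusted p 6.1e-10 and 1.8e-09).

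Among the 11 heat shock and chaperone genes of the cytosol and mitochondria, 9 were higher and 2 lower in M-MDSC in LD, and 6 higher and 2 lower in Ctrl. Hspa8 differed by 1.41 ± 0.10 in LD and 1.53 ± 0.10 in Ctrl, limma adjusted p 8.3e-09 and 3.2e-09, Hsp90ab1 by 1.57 ± 0.12 in LD and 1.88 ± 0.12 in Ctrl, limma adjusted p 1.3e-08 and 1.8e-09, and Hsph1 by 3.91 ± 0.30 in LD and 3.96 ± 0.30 in Ctrl, limma adjusted p 2.1e-08 and 1.8e-08. Hsph1 is the clearest case in level, with 763, 866 and 784 in M-MDSC LD and 81.2, 57.4 and 30.9 in PMN-MDSC LD, and 329, 522 and 432 in M-MDSC Ctrl and 30.6, 28.1 and 20.8 in PMN-MDSC Ctrl. With the deposited scaling Hsp90aa1 passed in LD and not in Ctrl, at 0.94 ± 0.11 in LD and 0.12 ± 0.11 in Ctrl, limma adjusted p 1.9e-06 and 0.329. With total-read scaling, which moved the median of all genes by 0.62 in Ctrl, it was also higher in M-MDSC in Ctrl, by 0.75 (adjusted p 1.5e-04). Hspa1a and Hspa1b passed in LD, at 3.30 ± 0.60 and 2.44 ± 0.40 (limma adjusted p 1.7e-04 and 5.6e-05), and not in Ctrl, at 0.76 ± 0.60 and 0.88 ± 0.40 (limma adjusted p 0.265 and 0.0553), but their LD changes were not called different between populations (2.54 ± 0.85, limma adjusted p 0.131, and 1.56 ± 0.56, limma adjusted p 0.16). In Ctrl, Hspa1a passed without M-MDSC Ctrl replicate 1 (adjusted p 0.0437) and Hspa1b without M-MDSC Ctrl replicate 1 (adjusted p 0.0207) or PMN-MDSC LD replicate 1 (adjusted p 0.0412). The Hspa1b difference in Ctrl also passed with TMM scaling (adjusted p 0.04), total-read scaling (adjusted p 0.00429), a pseudocount of 8 (adjusted p 0.0488), edgeR (adjusted p 0.0256) and DESeq2 (adjusted p 0.0178). Hsf1 was higher in M-MDSC by 0.95 ± 0.21 in LD and 0.84 ± 0.21 in Ctrl, limma adjusted p 8.8e-04 and 0.00233. The 2 HSP40 genes ran the other way: Dnaja1 had 651, 718 and 762 in M-MDSC LD and 880.5, 997 and 1203 in PMN-MDSC LD, and 475, 542 and 424 in M-MDSC Ctrl and 1122, 1134 and 1042 in PMN-MDSC Ctrl (-0.52 ± 0.13 in LD and -1.20 ± 0.13 in Ctrl, limma adjusted p 0.00172 and 6.8e-07), and Dnajb1 differed by -0.76 ± 0.15 in LD and -1.38 ± 0.15 in Ctrl, limma adjusted p 4.6e-04 and 1.3e-06, although with total-read scaling the LD difference was 0.21 for Dnaja1 (adjusted p 0.0818) and -0.02 for Dnajb1 (adjusted p 0.89). Dnaja1 exons overlap those of Smu1 on the opposite strand.

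The mitochondrial pair Hspd1 and Hspe1, HSP60 and its lid HSP10, lie head to head on chromosome 1 (Hspd1 chr1:55077833-55088243, minus strand; Hspe1 chr1:55088148-55091317, plus strand; GRCm38), and the longest Hspe1 coding transcript overlaps exons of Hspd1. Hspe1 had 241, 269 and 216 in M-MDSC LD and 18.9, 30.9 and 5.6 in PMN-MDSC LD, and 263, 266 and 245 in M-MDSC Ctrl and 20.4, 16.7 and 8.0 in PMN-MDSC Ctrl (3.91 ± 0.48 in LD and 4.10 ± 0.48 in Ctrl, limma adjusted p 3.5e-06 and 2.1e-06), and its LD difference was 3.26 without PMN-MDSC LD replicate 3. Hspd1 had 537, 581 and 580.3 in M-MDSC LD and 246, 100.0 and 128 in PMN-MDSC LD, and 606, 561 and 485 in M-MDSC Ctrl and 129.6, 136 and 161 in PMN-MDSC Ctrl (1.94 ± 0.25 in LD and 1.94 ± 0.25 in Ctrl, limma adjusted p 5.0e-06 and 5.0e-06). Of 12 other mitochondrial chaperones and proteases, 9 were higher and 1 lower in M-MDSC in LD, and 10 higher and 1 lower in Ctrl, among them Trap1, the mitochondrial HSP90 (2.84 ± 0.22, limma adjusted p 2.5e-08, in LD), and Afg3l2, an inner membrane protease (2.10 ± 0.15 in LD and 2.05 ± 0.15 in Ctrl, limma adjusted p 1.3e-08 and 1.7e-08). Yme1l1, another inner membrane protease, was lower (-1.04 ± 0.09, limma adjusted p 4.9e-08, in Ctrl). Of 34 other cytosolic chaperone genes, 20 were higher and 5 lower in LD, and 20 higher and 6 lower in Ctrl; Cct2, Cct4 and Cct8 are subunits of the CCT ring, with Cct2 at 1.86 ± 0.15 in LD and 2.26 ± 0.15 in Ctrl, limma adjusted p 4.3e-08 and 4.8e-09. The heat shock element, searched on both strands as GAA, TTC and GAA or as TTC, GAA and TTC, with 2 bases between units, was found in 3 of the 32 genes with a promoter window (Hspd1, Hspe1 and Hsph1) and in 0.662% of all genes. The 250 bases before the Hspe1 start are shown because the elements in them also lie in the Hspd1 window, with the letters of the overlapping elements in capitals.
Hspe1 promoter, chr1:55087898-55088147, plus strand: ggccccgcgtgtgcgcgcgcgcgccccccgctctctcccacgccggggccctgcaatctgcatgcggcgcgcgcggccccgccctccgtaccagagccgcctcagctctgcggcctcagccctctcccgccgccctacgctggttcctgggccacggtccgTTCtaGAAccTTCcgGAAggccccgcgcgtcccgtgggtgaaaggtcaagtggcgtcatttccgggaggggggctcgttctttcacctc

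**Figure D4:**
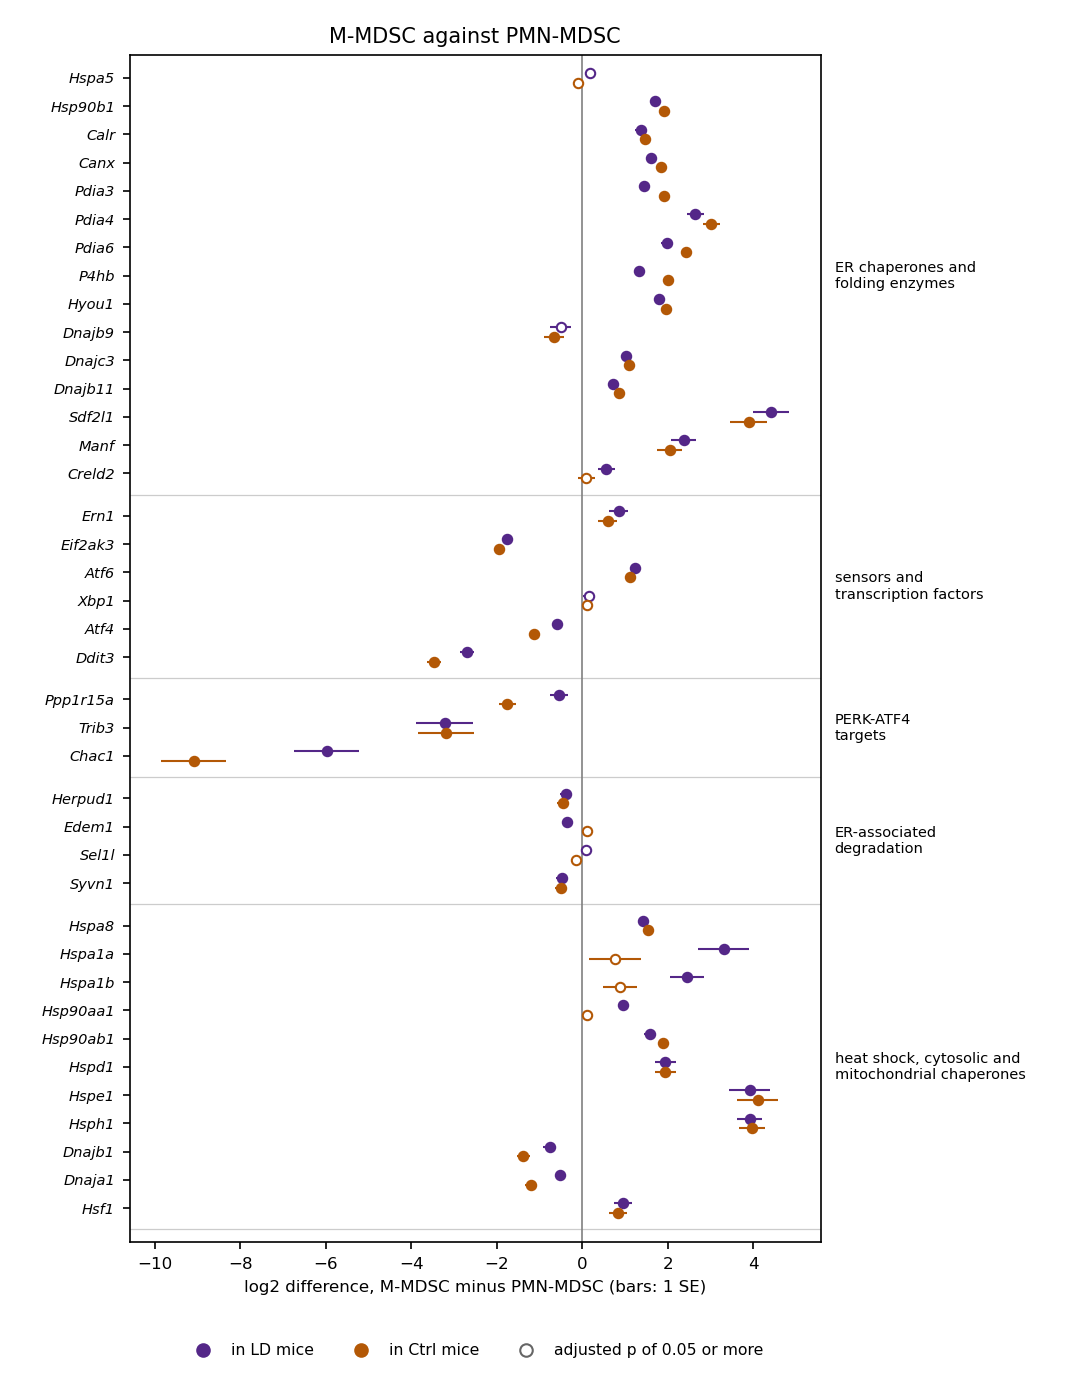
Log2 difference of M-MDSC minus PMN-MDSC, with bars of 1 SE, for all 39 genes in LD mice (purple) and Ctrl mice (brown), by role, with the deposited scaling; filled points have an adjusted p under 0.05. ER chaperones lie mostly right of 0 with Hspa5 near 0 (0.19 in LD and -0.10 in Ctrl), the PERK-ATF4 targets lie left of 0 (Ppp1r15a in LD moves right of 0 with total-read scaling, to 0.18), and Chac1 is farthest out at -5.98 in LD and -9.09 in Ctrl.

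Set against each other per kilobase of the longest coding transcript (GENCODE M21), the 39 genes ranked differently in the 2 populations. Hspa8 ranked 1 in all 4 groups, at 5944 ± 143 normalized counts per kilobase in M-MDSC LD, 4388 ± 408 in M-MDSC Ctrl, 2239.5 ± 185 in PMN-MDSC LD and 1515 ± 146 in PMN-MDSC Ctrl. Hsp90ab1 ranked 2 in M-MDSC LD, M-MDSC Ctrl and PMN-MDSC LD, and 7 in PMN-MDSC Ctrl. In M-MDSC the next places went to ER chaperones, Calr at 2286 ± 215 and Hsp90b1 at 2187 ± 139.5 per kilobase in LD, a pair that does not differ beyond its SD. In PMN-MDSC Ctrl Hspa5 ranked 2 at 1232 ± 20.9, followed by Xbp1 at 1134 ± 150.5, Atf4 at 1038 ± 122, Ddit3 at 987 ± 139.6 and Eif2ak3 at 916 ± 19.6 per kilobase. In M-MDSC Ctrl, Ddit3 ranked 32 and Eif2ak3 24, at 87.9 ± 13.6 and 237 ± 35.4 per kilobase. Transcript lengths are those of the annotation, and which isoforms these cells use was not measured, so the ranks of neighbours are approximate.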

How the data were processed

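Total RNA libraries, depleted of ribosomal RNA per the labels' protocols, were sequenced from 12 samples in 4 groups of 3. The authors deposited one table of 23479 genes whose unit is a signal: reads per gene divided by 1 size factor per sample. All values were whole multiples of 1 read's worth (100% within 0.001 reads), so reads were recovered for count tests (8906045 to 16242926 per sample); they carry no molecular identifiers, and intervals cover counting error only. The submitters' processing notes name mm10, STAR 2.5.3a, HTSeq 0.6.1 and DESeq2, without roles. Whether libraries were stranded is not given in the sources used here.

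The 39 genes, their roles and the further pathway and marker lists were chosen with earlier results of these data known. Group means were fitted with limma 3.58.1 in R 4.3.3 (trend, 8 residual degrees of freedom) on log2(normalized count + 1) for 11122 genes with a mean of at least 10, so that changes of low genes are understated. Tests were two-sided, with Benjamini-Hochberg adjustment across all genes of each of 5 comparisons, at 0.05. Genes past the threshold are given with sample values; between populations, up to 4 per role and, of each further list, up to 3 per comparison, by smallest adjusted p. One gene that this rule would name is not reported here. Some lists share genes, such as Atf3 and Txndc5. Count tests used edgeR 4.0.16 and DESeq2 1.42.0. Scripts were tested on simulated data. Coordinates and promoters are from RefSeq (GRCm38), exon overlaps and lengths from GENCODE M21, and figures from Python 3.11.15 with matplotlib 3.10.9. Replicates of a group differed by more than sampling noise. Other alternatives were pseudocounts of 0.5 and 8, a stricter minimum mean (50) or none, scaling by TMM or by the upper quartile, robust empirical Bayes, the 2 groups alone, a replicate block, each library left out, both LD replicate 1 libraries left out and, added after seeing the data, scaling to total reads.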

Additional observations from a re-analysis of the deposited data

Results flagged for a closer look

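For 6 genes, 1 of the 39 and 5 of the further pathway lists, the test of the difference between the LD change in M-MDSC and the LD change in PMN-MDSC passed the threshold (limma, Benjamini-Hochberg adjusted over 11122 genes, of which 2.25% passed). Hsp90aa1 differed by 0.82 ± 0.15, limma adjusted p 0.0136, with an M-MDSC change of 0.77 and a PMN-MDSC change of -0.05. Cebpb differed by 0.59 ± 0.14, limma adjusted p 0.0433, with 6004, 7415 and 6746 in M-MDSC LD and 4908, 5403 and 4808 in M-MDSC Ctrl, and 5475, 6575 and 5748 in PMN-MDSC LD and 6948, 6356 and 6827 in PMN-MDSC Ctrl. Map3k5 differed by 0.64 ± 0.14, limma adjusted p 0.0342, with changes of -0.06 ± 0.10 in M-MDSC and -0.70 ± 0.10 in PMN-MDSC. Lonp1 differed by 1.01 ± 0.24, limma adjusted p 0.0412, with changes of 0.07 ± 0.17 in M-MDSC and -0.93 ± 0.17 in PMN-MDSC. Eif2ak2 differed by -0.74 ± 0.18, limma adjusted p 0.0482, with changes of -0.07 ± 0.13 in M-MDSC and 0.67 ± 0.13 in PMN-MDSC. Ssr3 differed by -0.70 ± 0.16, limma adjusted p 0.0342, with 2015, 1902 and 2217 in M-MDSC LD and 2149, 2522 and 2226 in M-MDSC Ctrl, beside the PMN-MDSC values given above. Hsp90aa1 kept its call without each of the 12 libraries in turn, but the other 5 lost theirs in most of these fits, Ssr3 in 8 (adjusted p 0.0547 to 0.0918; kept without PMN-MDSC LD replicate 1, or without PMN-MDSC Ctrl replicate 1, or without M-MDSC LD replicate 1 or 3), Map3k5 in 9 (adjusted p 0.0532 to 0.0899; kept without PMN-MDSC LD replicate 1, or without PMN-MDSC Ctrl replicate 1, or without M-MDSC LD replicate 1), Eif2ak2 in 10 (adjusted p 0.0739 to 0.119; kept without PMN-MDSC LD replicate 1, or without PMN-MDSC Ctrl replicate 3), Cebpb in 9 (adjusted p 0.0605 to 0.101; kept without PMN-MDSC LD replicate 1 or 2, or without M-MDSC LD replicate 1) and Lonp1 in 10 (adjusted p 0.0561 to 0.113; kept without PMN-MDSC LD replicate 1 or 3). Beyond leaving out each library in turn, no test for outlying libraries was made, since groups of 3 are too small for one.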

How the results depend on the processing

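The count of the 39 genes called for LD in M-MDSC was 3; it was 5 with total-read scaling, 6 with edgeR, 9 with DESeq2 and 5 without LD replicate 1 of both populations, and 1 (without M-MDSC Ctrl replicate 1) to 7 (without PMN-MDSC LD replicate 1) with each library left out. In PMN-MDSC it was 7, and 4 (without PMN-MDSC Ctrl replicate 3) to 9 with each library left out. For the difference between these changes it was 1; it was 4 with a pseudocount of 8, 3 with a mean of at least 50, 3 with TMM, 3 with total-read scaling, 4 with edgeR, 8 with DESeq2, 4 without LD replicate 1 of both populations and 1 to 4 with each library left out: 2 on leaving out M-MDSC LD replicate 1 or 3 or M-MDSC Ctrl replicate 1, 3 on leaving out PMN-MDSC LD replicate 3 and 4 on leaving out PMN-MDSC LD replicate 1. Between populations it was 35 in LD (33 to 36 with each library left out) and 31 in Ctrl (28 to 32). Hsp90aa1 kept its M-MDSC call and its call for the difference between populations under every alternative run. With total-read scaling, calls over all genes in PMN-MDSC LD split into 644 higher and 1172 lower, against 798 and 947 with the deposited scaling, and for the difference between changes into 216 and 95, against 131 and 119. Upper-quartile scaling moved the median of all genes by -0.17 in LD and -0.18 in Ctrl between populations.

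Turned in direction with total-read scaling were, in LD, Atf4 (0.14), Ppp1r15a (0.18), Herpud1 (0.35), Edem1 (0.38), Syvn1 (0.25) and Dnaja1 (0.21). In Ctrl they were Hspa5 (0.53), Herpud1 (0.18), Sel1l (0.47) and Syvn1 (0.13). Of these, Herpud1 and Edem1 in LD and Hspa5 and Sel1l in Ctrl passed as higher in M-MDSC. That scaling adds 0.73 in LD and 0.62 in Ctrl to the median gene. With a replicate block the counts stayed at 3, 7, 1, 35 and 31. That block also joins LD and Ctrl libraries, which come from different mice. The labels do not say that equal numbers mark a shared animal, so the numbers were not taken as pairs. Deviations from group means of M-MDSC LD and PMN-MDSC LD correlated at 0.21, 0.12 and 0.07 between equal numbers. Between unequal numbers they correlated at -0.16 to 0.05. In Ctrl these values were -0.04, 0.05 and 0.13, and -0.15 to 0.1. Whether equal numbers share an animal was not tested, and comparisons between populations take the libraries as independent. Depth limits Chac1 and Trib3 in M-MDSC, with 1 to 33 reads per group, and Hsf2, Hspb11 and Selm in PMN-MDSC. Apart from what each construction fixes, the cause was not tested.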
